A study of Mus musculus with 4 samples.

Results

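The 8 receptor genes described here, Il31ra, Cysltr2, Htr1f, Il4ra, Il13ra1, Hrh1, S1pr1 and Lpar3, let itch mediators and type 2 cytokines act on primary sensory neurons. They were taken by symbol from the 31053 genes of single-cell RNA sequencing of mouse dorsal root ganglia (DRG), and all 8 were found. The question put to them was which sensory neuron subtypes carried each receptor after sham surgery, and how each level differed after the sciatic nerve had been constricted (CCI, chronic constriction injury), separately in neurons with and without the injury marker Sprr1a. There were 4 libraries, 2 of sham surgery (Male-Sham and Female-Sham) and 2 of injury (Male-CCI and Female-CCI). Each held cells of 20 lumbar L4-5 DRGs pooled from 5 mice, collected on day 7 after bilateral surgery. All mice were heterozygous Pirt-EGFPf animals on a C57BL/6 background, aged 7 to 8 weeks, in which a membrane-targeted EGFP stands in for the coding sequence of Pirt and follows the Pirt promoter. GFP+ cells were collected by flow cytometry, so neurofilament neurons, to which most of the neurons without Pirt belong, may be somewhat underrepresented in every group. Within a surgery, its 2 libraries of different sex served as replicates (n = 2), so the spread between replicates also holds any difference between the sexes, and litter followed surgery, so litter and surgery cannot be told apart.

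Itch begins when a mediator from immune cells or skin binds a receptor on a C fibre. Il31ra encodes the ligand-binding chain of the receptor for IL-31, a T-cell cytokine of atopic dermatitis, and signals together with the oncostatin M receptor chain Osmr through JAK kinases and STAT factors. Il4ra encodes the chain shared by both kinds of IL-4 receptor. Its partner is Il2rg in the receptor for IL-4 alone and Il13ra1 in the receptor for IL-4 and IL-13. The other members are G protein-coupled receptors: Cysltr2 for cysteinyl leukotrienes, Htr1f for serotonin, Hrh1 for histamine, S1pr1 for sphingosine 1-phosphate and Lpar3 for lysophosphatidic acid. Among sensory neurons, NP1 cells, which make the itch peptides Nppb and Sst, are known for Il31ra and Cysltr2, NP3 cells for the pruritogen receptor Mrgpra3, and NP2 cells for Mrgprd.

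The deposited matrices held between 195684124 and 237069156 UMIs per library (a UMI stands for 1 captured transcript), and 2947 to 5548 cells per library were kept, 15715 in all. Cells fell into 31 clusters, which were given the study's subtype names from marker lists and are therefore NP1-like, NP2-like and so on, written here without the suffix. They comprised NP1 (451 cells), NP2 (1365), NP3 (565), PEP1 (1884), PEP2 (533), PEP3/4 (3005), PEP5 (1193), NF1 (519), NF2 (412), cLTMR (1359), CCI-ind, the injury-induced neurons that had lost most subtype markers (3084), satellite glial cells (SGC, 582) and 763 neurons left without a name. Leaving the 8 members out of the clustering again gave 451 NP1 cells. Between 215 and 513 cell barcodes recurred in each pair of libraries, and 33 to 395 kept cells per library had a barcode that also occurred in another library. Marker genes of satellite glia were found in every neuron class and are given beside S1pr1, the member that these glia also carry.

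The members lie on 7 chromosomes. In GRCm38 coordinates, Il31ra (ENSMUSG00000050377) spans chromosome 13 from 112519898 to 112594360 on the minus strand, Cysltr2 (ENSMUSG00000033470) chromosome 14 from 73025603 to 73049114 on the minus strand, and Htr1f (ENSMUSG00000050783) chromosome 16 from 64924729 to 65105854 on the minus strand. Il4ra (ENSMUSG00000030748) spans chromosome 7 from 125552120 to 125579474 and Il13ra1 (ENSMUSG00000017057) chromosome X from 36112110 to 36171259, both on the plus strand. Hrh1 (ENSMUSG00000053004) lies on chromosome 6 from 114397936 to 114483296, Lpar3 (ENSMUSG00000036832) on chromosome 3 from 146220963 to 146286186, both on the plus strand, and S1pr1 (ENSMUSG00000045092) on chromosome 3 from 115710433 to 115715072 on the minus strand. All are protein coding.

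Upstream promoter sequence is shown for Il31ra, Cysltr2 and Htr1f, 3 of the 4 members that fell in injured NP1 neurons, and for the 2 that rose there, trimmed to bases outside annotated exons, from RefSeq for GRCm38.p6, 5′ to 3′ on the gene's own strand. Capitals mark a match to one of 5 short motifs searched on both strands: AP-1 (TGANTCA), CRE (TGACGTCA), STAT (TTCNNNGAA), STAT6 (TTC and GAA with 4 bases between) and RUNX (TGTGGT).
Il31ra, chr13:112580663-112580862, minus strand: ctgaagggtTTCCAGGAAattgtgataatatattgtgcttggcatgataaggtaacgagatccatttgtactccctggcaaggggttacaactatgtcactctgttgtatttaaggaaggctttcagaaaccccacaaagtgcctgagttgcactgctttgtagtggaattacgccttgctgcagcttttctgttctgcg
Cysltr2, chr14:73049115-73049314, minus strand: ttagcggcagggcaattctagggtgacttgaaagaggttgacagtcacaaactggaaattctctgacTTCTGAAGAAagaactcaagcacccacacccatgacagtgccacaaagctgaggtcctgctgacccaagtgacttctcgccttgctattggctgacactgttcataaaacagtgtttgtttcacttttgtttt
Htr1f, chr16:65105855-65106034, minus strand: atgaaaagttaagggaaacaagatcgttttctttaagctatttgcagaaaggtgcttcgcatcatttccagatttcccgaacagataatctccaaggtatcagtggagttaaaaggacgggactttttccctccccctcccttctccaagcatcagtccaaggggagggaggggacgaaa
Il4ra, chr7:125552021-125552119, plus strand: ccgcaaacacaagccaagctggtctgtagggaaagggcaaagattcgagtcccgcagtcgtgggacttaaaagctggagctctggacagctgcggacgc
Il13ra1, chrX:36111908-36112107, plus strand: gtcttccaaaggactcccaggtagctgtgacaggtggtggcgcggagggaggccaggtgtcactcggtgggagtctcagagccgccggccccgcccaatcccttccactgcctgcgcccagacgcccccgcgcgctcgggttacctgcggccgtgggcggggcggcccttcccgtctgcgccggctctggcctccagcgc
The window of Il31ra held 1 STAT match, from base -191 to base -183 of the RefSeq start, and that of Cysltr2 held 1 STAT6 match, from -133 to -124. The RefSeq start of Il31ra lies inside the gene span given above, so its window is not upstream of the whole annotated gene. The 3 other windows held none of the 5 motifs. Among 32851 mouse promoter windows of 250 bases, 7.02% held the STAT letters, 5.85% the STAT6 letters, 6.75% the AP-1 letters, 1.55% the CRE letters and 14.0% the RUNX letters, so such matches are common and mark no site of binding.

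Levels are given as CPM, the sum of a receptor's UMIs in all cells that a library gave to a class, scaled to 1e+06 UMIs of those cells. After sham surgery the members fell into 4 patterns: 4 were highest in NP1, 1 in NP2 and 1 in NP3, while the remaining 2, the receptor chains for IL-4 and IL-13, were spread over several classes. No class difference was tested, since the clusters were made from these same cells.

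Il31ra was close to exclusive to NP1. Its NP1 level was 319 CPM in Male-Sham and 279 CPM in Female-Sham (298.8 ± 28.7, SD, n = 2), and the next class, NP3, had 4.35 ± 0.518 CPM. NP1 made up 2.68% and 1.59% of sham neurons and held 89.4% and 88.6% of their Il31ra UMIs. At least 1 Il31ra UMI was present in 87 of 88 NP1 cells of Male-Sham (98.9%, exact 95% interval 93.8% to 100%) and in 79 of 86 of Female-Sham (91.9%, 83.9% to 96.7%). In cLTMR, touch neurons not known for this receptor, the shares were 2 of 363 cells (0.551%) and 0 of 674. Median depths there were 56031 and 38808.5 UMIs per cell, against 51924 and 41000 in NP1. The part of free RNA in these shares was not tested. No Il31ra UMI was counted in 132 and 249 PEP2 cells, which allows shares of up to 2.76% and 1.47% (exact 95% bounds). These intervals and shares cover counting error only.

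Cysltr2 and Htr1f had the same leading class. Cysltr2 stood at 210 and 206 CPM in NP1 (208 ± 2.44), with NP3 at 6.55 ± 0.805 and NP2 at 4.59 ± 0.293 CPM next in order, and 75.7% and 72.4% of its neuronal UMIs lay in NP1. Htr1f stood at 332 and 281 CPM in NP1 (307 ± 35.9). Its next class was NF1, a neurofilament class, at 9.59 and 8.93 CPM, and within NF1 its level was 22.2 and 23.4 CPM in cluster 28, led by Pvalb, and 4.45 and 5.61 CPM in cluster 19. In the cells themselves the 3 receptors coincided. All of Il31ra, Cysltr2 and Htr1f had a UMI in 81 of 83 Sprr1a- NP1 cells of Male-Sham and in 68 of 71 of Female-Sham, and Osmr, the second chain of the IL-31 receptor, had a UMI in every Il31ra-positive cell of both.

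S1pr1 was shared between NP1 and glia. The NP1 level was 52.8 and 54.5 CPM (53.7 ± 1.19), and satellite glial cells had 42.3 and 50.7 CPM (46.5 ± 5.90), the next in order, with ranges that did not overlap. PEP1 followed at 14.6 ± 0.292 CPM and NP3 at 10.5 ± 1.03 CPM. NP1 was not the class with the most glial marker RNA: the 5 glial markers, of which Apoe was the most abundant, summed to 426 and 756 CPM in its Sprr1a- cells, against 1463 and 1440 CPM in those of PEP1 and 127066 and 128153 CPM in satellite glia, with none of the 5 at 0. Their part in the S1pr1 level of PEP1 was not tested.

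Il4ra had the broadest pattern. Its order began with PEP2 (52.6 and 52.4 CPM), PEP1 (41.7 and 40.5), PEP3/4 (41.9 and 38.1) and NP3 (37.7 and 32.1), and the ranges of PEP1 and PEP3/4 overlapped. The few CCI-ind neurons of sham (44.4 and 29.8) and the neurons without a name (29.8 and 37.4) lay among these. NP1 had 16.8 and 16.1 CPM, below all peptidergic classes but PEP5, and the lowest neurons were cLTMR (3.72 and 5.88) and NF1 (3.25 and 3.78). Il13ra1 was led by NP1 at 19.9 and 25.7 CPM and PEP3/4 at 20.2 and 22.4 CPM, which overlapped, and the remaining subtypes other than CCI-ind (19.5 ± 3.25 CPM) ran from PEP5 at 12.9 ± 0.399 CPM down to cLTMR at 0.331 ± 0.0365 CPM. By number of transcripts, 38.4% and 41.0% of the neuronal Il13ra1 UMIs came from PEP3/4, and 27.2% and 27.0% of those of Il4ra.

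Hrh1 and Lpar3 marked the other non-peptidergic classes. Hrh1 was highest in NP3 at 24.9 and 24.7 CPM (24.8 ± 0.0899), followed by NP1 at 7.34 and 8.19 CPM, and 74.6% and 72.5% of its neuronal UMIs lay in NP3. An Hrh1 UMI was found in 71.4% and 61.8% of NP3 cells, and in 0 of 363 and 4 of 674 cLTMR cells. Lpar3 was highest in NP2 at 120 and 110.0 CPM (115 ± 7.16), and NP2 held 91.6% and 89.1% of its neuronal UMIs. The next levels were 15.6 ± 2.12 CPM in the neurons without a name and 14.2 ± 6.13 CPM in satellite glia, whose ranges overlapped. When every cell was thinned to 2000 UMIs, so that deep and shallow classes could be compared, the class with the largest share of positive cells was the class with the highest CPM for 7 of the 8 members, and for Il13ra1 it was PEP3/4. Without thinning, the largest share of Il4ra-positive cells was in NP3 (79.8%, mean of 2 libraries), not in PEP2.

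**Figure D1:**
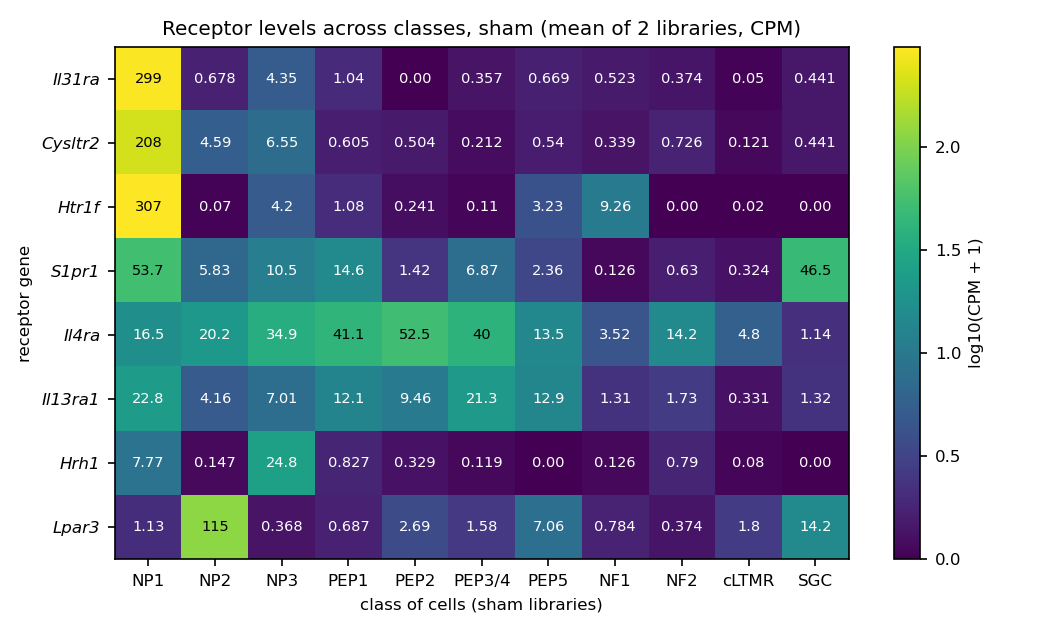
Heat map of the mean level after sham surgery (CPM on a log colour scale, n = 2 libraries) of the 8 receptors (rows) in 10 neuronal classes and satellite glial cells (columns). Il31ra, Cysltr2, Htr1f and S1pr1 peak in NP1, Hrh1 in NP3 at 24.8 CPM, Lpar3 in NP2 at 115 CPM, and Il4ra and Il13ra1 are spread over several classes.

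The genes closest to each member over the 20 sham profiles (10 classes in 2 libraries, log2(CPM + 1), 10471 genes with at least 10 CPM in 1 profile) were found by Pearson correlation, as a description of shared pattern. The profiles share their libraries and differ in depth. Nearest to Il31ra were Gm40538 (r = 0.98), Wfdc17 and 9230105E05Rik (both 0.97), and nearest to Cysltr2 were Adam8 (0.97), Il31ra itself (0.96) and Mymx (0.96). Jak1, the kinase that the IL-4, IL-13 and IL-31 receptors use, was nearest to Htr1f (0.94), ahead of Gm47595 (0.93) and Cmtm7 (0.92). Osmr was nearest to S1pr1 (0.95), followed by Stom (0.94). Il4ra was closest to Bcor (0.96), S100a11 (0.96) and Sox4 (0.95), and Il13ra1 to Sema4c (0.95), Sbno2 (0.94) and March8 (0.93). Hrh1 was closest to Cyp4b1 (0.93), Mustn1 (0.90) and the NP3 marker Mrgpra3 (0.88), and Lpar3 to Nupr1 (0.91), Txndc11 (0.90) and Cyp26b1 (0.87). Il31ra and Il4ra had unrelated profiles, with r = 0.04.

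Over all neurons together, CCI was followed by more of both IL-4/IL-13 receptor chains and by less S1pr1 and Lpar3. A gene was called changed at an adjusted p below 0.05 and an absolute log2 fold change above 0.5 (edgeR quasi-likelihood test, Benjamini-Hochberg over all genes tested). By that rule 4 of 8 members changed, 2 up and 2 down, where 27.8% of the 17233 genes tested were called. The median log2 fold change was 0.09 for the members and -0.01 for all genes tested.

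Il13ra1 stood at 8.95 and 10.3 CPM in the sham libraries and at 22.8 and 23.9 CPM in the CCI libraries (log2 fold change 1.33, SE 0.08, adjusted p = 4.4e-05). Il4ra stood at 26.2 and 26.7 against 41.5 and 42.9 CPM (0.73, SE 0.04, adjusted p = 3.1e-05). For both chains the CCI libraries lay above both sham libraries. S1pr1 fell from 6.80 and 7.27 to 3.25 and 3.68 CPM (log2 fold change -0.97, SE 0.09, adjusted p = 0.00019), and Lpar3 from 25.1 and 19.0 to 6.41 and 6.09 CPM (-1.76, SE 0.13, adjusted p = 0.00017), again with no overlap. Il31ra, Htr1f and Hrh1 overlapped between the surgeries, with log2 fold changes of 0.12 (SE 0.22), 0.07 (SE 0.25) and 0.20 (SE 0.12). Cysltr2 was at 7.20 and 5.32 against 4.82 and 3.64 CPM and was not called (-0.51, SE 0.19, adjusted p = 0.074). It was called in 6 of 13 alternatives, among them with DESeq2 (adjusted p = 0.019) and without Female-Sham (0.018) or Male-CCI (0.043), and the adjusted p ranged up to 0.25, without Female-CCI.

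The makeup of the libraries differed at the same time. NP2, the main source of Lpar3, made up 14.0% and 10.9% of sham neurons and 5.18% and 4.65% of CCI neurons, and CCI-ind neurons 1.37% and 2.59% against 45.4% and 44.5%. NP1 made up 2.68% and 1.59% against 4.58% and 4.07%. In bulk sums such as these, fewer cells of a type and less RNA per cell cannot be told apart. In the CCI libraries CCI-ind neurons held 60.1% and 58.7% of all neuronal Il4ra UMIs and 65.1% and 63.7% of those of Il13ra1, at 56.3 and 56.6 CPM and at 33.5 and 34.2 CPM. Glial marker RNA in neurons was lower after CCI, at 994 and 1170 CPM against 1335 and 1652 CPM, and its part in the fall of S1pr1 was not tested.

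Neurons were split by Sprr1a, a cornified envelope protein gene known to be switched on in axotomised sensory neurons, at a normalised level of 1. Sprr1a+ neurons made up 1.28% and 2.67% of sham neurons and 52.1% and 49.2% of CCI neurons. The same split marked 1 of 190 and 2 of 150 satellite glial cells of sham and 21 of 130 and 17 of 112 of CCI. It also marked 7 NP2 cells of Female-CCI with a median of 5265 UMIs. The median over all Sprr1a+ neurons of CCI was 60287 and 45680 UMIs. Some glial and some shallow cells thus also passed as Sprr1a+. Among neurons without Sprr1a, the members differed little between the surgeries. Only Lpar3 was called, 1 of 8 where 4.48% of genes tested were, at 25.4 and 19.5 CPM after sham surgery and 12.5 and 11.01 CPM after CCI (-0.95, SE 0.14, adjusted p = 0.011), and that call was lost without Female-CCI (adjusted p = 0.079). Il13ra1 (0.47, SE 0.10, adjusted p = 0.022) and S1pr1 (-0.31, SE 0.08, adjusted p = 0.044) passed the p threshold but not the size threshold. Il13ra1 was called without Female-Sham (0.59, adjusted p = 0.025) or Male-CCI (0.55, adjusted p = 0.043), and Il31ra, at 9.16 and 5.50 against 10.2 and 8.53 CPM, without Male-Sham (0.73, adjusted p = 0.029).

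Within the CCI ganglia, Sprr1a+ neurons differed from Sprr1a- neurons in 6 of 8 members, 3 up and 3 down, where 45% of genes tested were called. The sums compared came from the same 2 libraries. Il13ra1 was at 31.6 and 33.7 CPM in Sprr1a+ and at 12.5 and 14.0 CPM in Sprr1a- neurons (log2 fold change 1.47, SE 0.08, adjusted p = 7.2e-06), Il4ra was higher by 1.02 (SE 0.06, adjusted p = 1e-05) and Hrh1 by 0.91 (SE 0.14, adjusted p = 0.0011). The histamine receptor differed at a low level, 2.98 and 3.50 against 1.94 and 1.94 CPM. Lpar3 (-3.07, SE 0.10, adjusted p = 1.6e-06), S1pr1 (-2.06, SE 0.12, adjusted p = 1.3e-05) and Cysltr2 (-1.21, SE 0.23, adjusted p = 0.0034) were lower in Sprr1a+ neurons. Of 1467 and 1789 Sprr1a+ neurons, 1239 and 1546 were CCI-ind and 0 and 7 were NP2, so the subtype makeup of both states differed as well. When any Sprr1a UMI made a neuron positive, the Lpar3 difference shrank to -0.14 and was no longer called. Scaling by library totals in place of TMM factors moved the median of all genes in this comparison to -0.17, and moved it to between -0.39 and -0.21 in the NF1 and NF2 comparisons of Sprr1a+ neurons. It changed no call on a member.

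NP1 was 1 of 3 subtypes with enough Sprr1a+ cells to test, and its receptors went in both directions. In Sprr1a+ NP1 neurons of CCI ganglia, Il31ra, Cysltr2, Htr1f and S1pr1 were 4.38 to 9.54 times lower than in Sprr1a- NP1 neurons of sham ganglia, while Il4ra was 3.25 times and Il13ra1 2.13 times higher. Sprr1a was on in 98 of 129 and 113 of 148 NP1 cells of CCI (76.0% and 76.4%), and in 5 of 88 and 15 of 86 of sham. The test called 6 of the 7 members with enough counts, 2 up and 4 down, where 41.6% of genes tested were called.

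Il31ra was at 342 and 316 CPM in Sprr1a- NP1 neurons of sham, at 375 and 296 CPM in those of CCI, and at 63.8 and 80.4 CPM in Sprr1a+ NP1 neurons of CCI. Only the last pair stood apart from the others (log2 fold change against sham -2.13, SE 0.11, adjusted p = 4.3e-22). Cysltr2 was at 226 and 245 CPM in Sprr1a- sham, at 242 and 145 CPM in Sprr1a- CCI, and at 24.1 and 23.4 CPM in Sprr1a+ CCI (-3.25, SE 0.12, adjusted p = 3.1e-33). It had the largest fold change of the 7 receptors tested in NP1, and the 2 Sprr1a+ sums differed by less than the spread within either other pair.

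Htr1f followed the same course, from 356 and 328 CPM in Sprr1a- sham through 318 and 259 CPM in Sprr1a- CCI to 67.5 and 81.2 CPM in Sprr1a+ CCI (-2.15, SE 0.11, adjusted p = 1.1e-25). S1pr1 went from 57.9 and 67.6 CPM through 45.7 and 38.8 CPM to 6.45 and 6.83 CPM (-3.17, SE 0.17, adjusted p = 5.6e-25). The glial markers summed to 509 and 522 CPM in Sprr1a+ NP1 neurons of CCI and to 426 and 756 CPM in Sprr1a- ones of sham, and their part in the S1pr1 values was not tested.

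The IL-4/IL-13 receptor chains went the other way. Il4ra was at 15.0 and 13.2 CPM in Sprr1a- sham, at 18.1 and 35.4 CPM in Sprr1a- CCI, and at 44.8 and 44.3 CPM in Sprr1a+ CCI (1.70, SE 0.16, adjusted p = 5.4e-14). Il13ra1 was at 17.9 and 22.9 CPM, then 23.1 and 27.4 CPM, then 40.8 and 41.5 CPM (1.09, SE 0.16, adjusted p = 1.5e-08). The share of NP1 cells with a UMI of both chains was 21.7% and 16.9% in Sprr1a- sham and 85.7% and 66.4% in Sprr1a+ CCI, at median depths of 51803 and 39316 against 72955.5 and 55434 UMIs per cell. Thinned to 2000 UMIs, an expected 3.29% and 2.56% of Sprr1a- sham cells and 8.40% and 7.93% of Sprr1a+ CCI cells had an Il4ra UMI.

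Hrh1 was not called in NP1, at 7.52 and 8.23 CPM in Sprr1a- sham and 8.60 and 8.26 CPM in Sprr1a+ CCI (0.17, SE 0.27, adjusted p = 0.63). Lpar3 was under 2 CPM in all NP1 groups and had too few counts to test. Of the 3 receptors that had coincided in nearly all NP1 cells, all had a UMI in 44 of 98 and 46 of 113 Sprr1a+ NP1 cells of CCI, although these were the deeper cells.

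**Figure D2:**
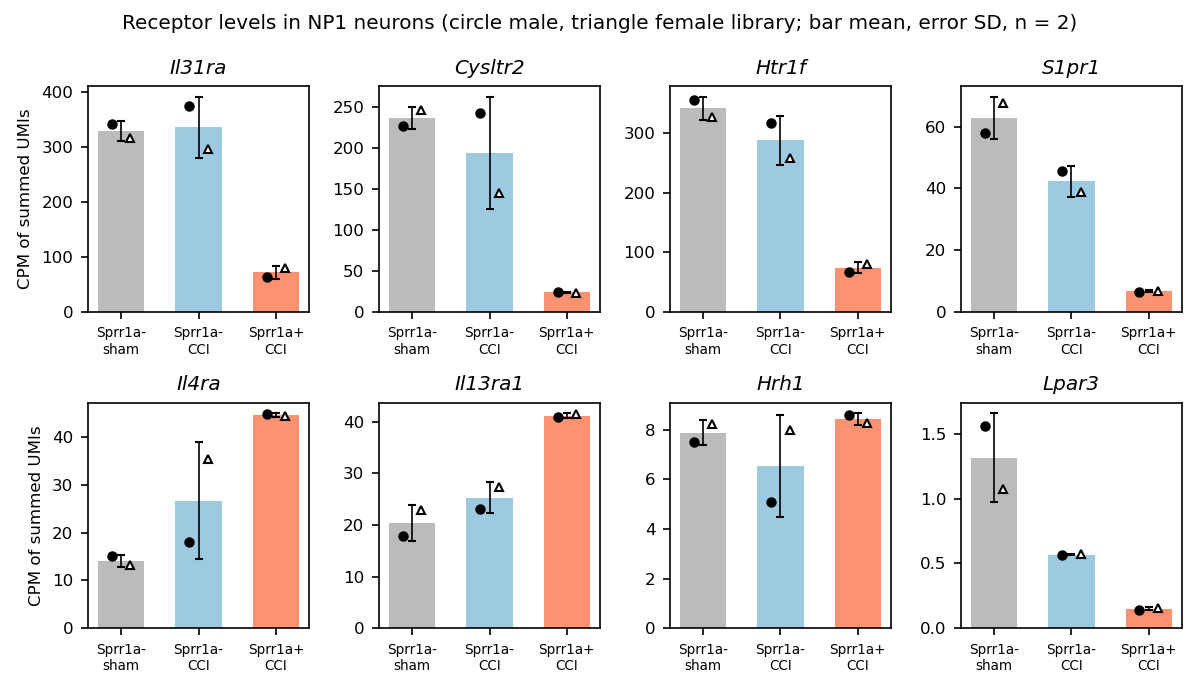
Level of each receptor in NP1 neurons (y axis, CPM, a separate linear scale per panel starting at 0) in Sprr1a- neurons of sham, Sprr1a- neurons of CCI and Sprr1a+ neurons of CCI, 1 point per library with bars for the mean and SD (n = 2). The last group is lowest for Il31ra, Cysltr2, Htr1f and S1pr1 and highest for Il4ra and Il13ra1, at 44.8 and 44.3 CPM for Il4ra.

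Within the CCI ganglia the same 6 members separated Sprr1a+ from Sprr1a- NP1 neurons, where 24.4% of genes tested were called. The log2 fold changes were -2.15 for Il31ra, -2.96 for Cysltr2, -1.89 for Htr1f, -2.60 for S1pr1, 0.80 for Il4ra and 0.77 for Il13ra1 (adjusted p between 3.5e-08 and 0.018). This comparison shares its Sprr1a+ sums with the one against sham, so the values are side by side and are not a repeat. The Il4ra call was lost with DESeq2 (adjusted p = 0.095). Between Sprr1a- NP1 neurons of CCI and sham, edgeR called 0 of 7 members, where 3.97% of genes tested were called, and DESeq2 called 0. At an unadjusted p under 0.05 there were 3, S1pr1 (-0.58, SE 0.17, adjusted p = 0.0505), Il4ra (0.90, SE 0.29, adjusted p = 0.096) and Htr1f (-0.26, SE 0.12, adjusted p = 0.23), on 31 and 35 CCI cells. Male-CCI decided this count: without it, Cysltr2 (-0.68, adjusted p = 0.00015), Il4ra (1.33, adjusted p = 0.00032) and S1pr1 (-0.67, adjusted p = 0.018) were called.

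NP1 was made of 2 clusters, and the state and the cluster largely coincided. Cluster 26, led by Sst and Nppb, held 82 of 83 and 63 of 71 Sprr1a- NP1 cells of sham, and cluster 25 held 97 of 98 and 111 of 113 Sprr1a+ NP1 cells of CCI. Cluster 25 passed 8 of 11 NP1 markers and 11 of 12 CCI-ind markers, and was named NP1 because a subtype name took precedence over the injury state, so the values of Sprr1a+ NP1 neurons rest on this name. The NP1 markers include Nts, which was itself higher after CCI over all neurons (2.90). Nppb was at 1314 and 1146 CPM in Sprr1a- NP1 neurons of sham and at 143 and 124 CPM in Sprr1a+ ones of CCI. Sst was at 1196 and 1291 against 0 and 2.54 CPM. In Sprr1a- cells of cluster 25 from CCI, 6 and 12 cells, Il31ra was at 49.7 and 73.8 CPM, against 60.8 and 75.5 CPM in the Sprr1a+ cells of that cluster. Cysltr2 was at 63.9 and 25.1 against 23.6 and 22.6 CPM, and Il13ra1 at 18.9 and 39.8 against 41.1 and 41.9 CPM. In Sprr1a- cells of cluster 26 from CCI, 25 and 23 cells, Il31ra was at 477 and 436 CPM and Il4ra at 13.3 and 20.4 CPM. In the 82 Sprr1a- cells of cluster 26 from Male-Sham, Il31ra was at 342 CPM. The Female-Sham value of that cluster is not given here. The Sprr1a- NP1 sums of CCI thus mix 2 clusters with unlike Il31ra levels, and their likeness to sham cannot be read as holding in each cluster. These values were not tested. Markers of immune cells, in which Il4ra and Il13ra1 are also expressed, summed to 4.67 and 3.94 CPM over 8 genes in Sprr1a- NP1 neurons of sham and to 5.30 and 3.97 CPM in Sprr1a+ ones of CCI. The endothelial sum went from 0.778 and 4.29 to 35.7 and 38.3 CPM, nearly all of it Egfl7, and its part in the result was not tested.

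Both neurofilament classes had more of the members that could be tested in their Sprr1a+ cells. After sham surgery their Il4ra levels differed, at 3.52 ± 0.380 CPM in NF1 and 14.2 ± 1.69 CPM in NF2. In Sprr1a+ NF1 neurons of CCI, all 4 members with enough counts were higher than in Sprr1a- NF1 neurons of sham, where 45.5% of genes tested were called. The count filter kept a member abundant in either group, so a member low in sham was tested only if high in Sprr1a+ cells. The direction of this count was therefore partly set by the filter. The members not tested had means of at most 0.784 CPM in sham and 0.222 CPM in Sprr1a+ cells. Il4ra went from 3.25 and 3.78 to 30.0 and 33.5 CPM (log2 fold change 3.48, SE 0.20, adjusted p = 7e-09) and Il13ra1 from 1.16 and 1.46 to 17.1 and 20.0 CPM (4.12, SE 0.29, adjusted p = 5.3e-08). Sprr1a+ cells were 55 of 119 and 32 of 87 NF1 cells of CCI and 0 of 148 and 0 of 165 of sham.

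Htr1f and Il31ra, both lower in injured NP1, were higher in injured NF1. Htr1f went from 9.59 and 8.93 to 34.8 and 31.1 CPM (2.18, SE 0.16, adjusted p = 1e-07). Cluster 19 held 55 of 55 and 31 of 32 Sprr1a+ NF1 cells of CCI, and in it Sprr1a- cells of sham had 4.45 and 5.61 CPM and Sprr1a+ cells of CCI 34.8 and 31.6 CPM. Il31ra rested on few transcripts, 6 and 6 UMIs in sham against 22 and 23 UMIs in CCI, or 0.464 and 0.582 against 4.88 and 13.5 CPM (4.201, SE 0.55, adjusted p = 2.8e-05). Its UMIs lay in 16 of 55 and 13 of 32 Sprr1a+ cells, and the 2 CCI libraries differed from each other by more than the lower of them exceeded sham. Nppb, the NP1 peptide, was at 0 in these Sprr1a+ NF1 cells of both libraries, and so was Cysltr2, which allows up to 0.666 and 1.76 CPM (3 UMIs per library). Glial markers summed to 341 and 239 CPM in them against 119 and 229 CPM in sham, and immune markers to 3.77 and 0 CPM, with 8 of 8 at 0 in Female-CCI.

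In NF2 the 2 members tested were both called, where 42.3% of genes tested were. Il4ra went from 13.0 and 15.4 to 36.9 and 39.7 CPM (1.69, SE 0.15, adjusted p = 1.3e-05) and Il13ra1 from 1.54 and 1.92 to 11.8 and 15.4 CPM (3.20, SE 0.29, adjusted p = 1.7e-05). Htr1f had no UMI in the NF2 cells of either sham library and 8 and 2 UMIs in Sprr1a+ cells of CCI, of which the latter is under the floor of 3 counts, and Il31ra had 1 and 3 against 20 and 6 UMIs. Neither was tested.

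Against Sprr1a- neurons of the same CCI ganglia the picture was alike in both classes, with Sprr1a+ sums shared between the comparisons. The count filter was the same, so members low in Sprr1a- cells were again tested only where they were abundant in Sprr1a+ cells. In NF1, 4 of 4 members were higher (42.8% of genes tested were called), by 3.95 for Il31ra, 1.56 for Htr1f, 2.95 for Il4ra and 2.92 for Il13ra1, with adjusted p between 4.7e-08 and 0.00013. In NF2, 2 of 2 were higher (31.7% called), Il4ra by 1.34 (SE 0.17, adjusted p = 9.4e-05) and Il13ra1 by 1.85 (SE 0.30, adjusted p = 0.00057). PEP5 gave 8 and 8 Sprr1a+ cells, under the minimum of 10, and NP2 0 and 7.

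**Figure D3:**
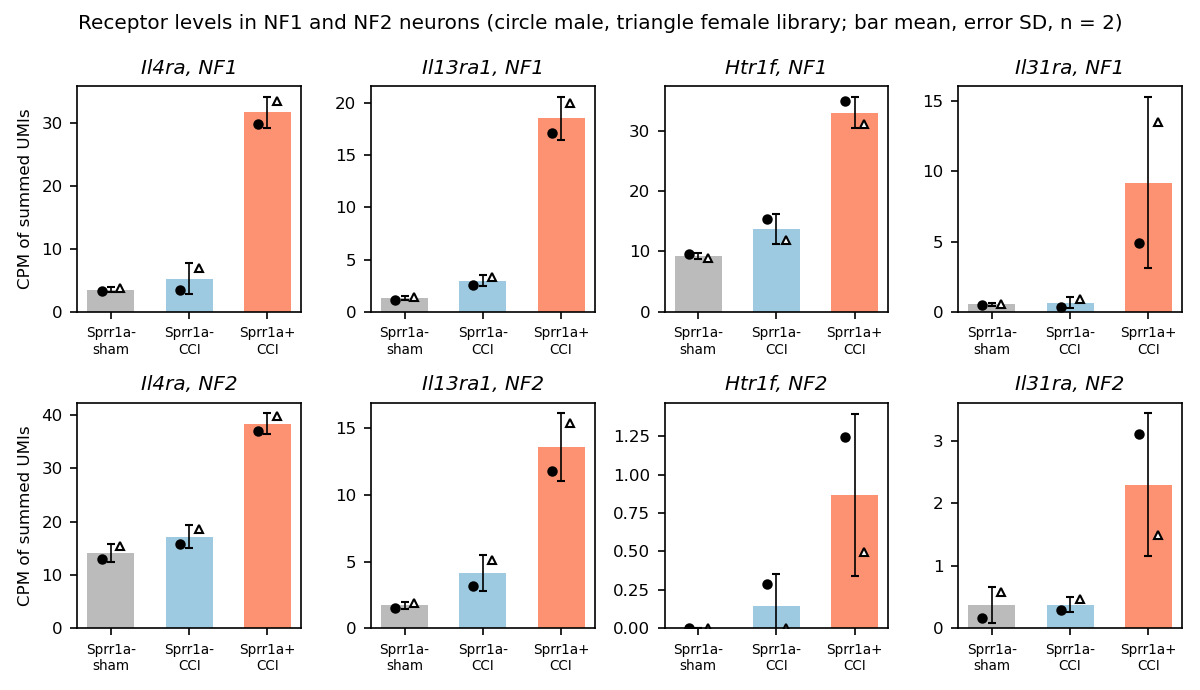
Levels (y axis, CPM, linear scale starting at 0) of Il4ra, Il13ra1, Htr1f and Il31ra in NF1 and NF2 neurons, 1 point per library in Sprr1a- sham, Sprr1a- CCI and Sprr1a+ CCI, with the mean and SD (n = 2). Il4ra reaches 30.0 and 33.5 CPM in Sprr1a+ NF1 neurons from 3.25 and 3.78 CPM in sham, and Il31ra is the member whose 2 Sprr1a+ points lie far apart, at 4.88 and 13.5 CPM.

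Among Sprr1a- neurons taken class by class, 5 differences between CCI and sham were called. DESeq2 called 2 of them, Lpar3 in NP2 and Il31ra in PEP1, and gave no adjusted p for Il13ra1 in NP3. None was called when any UMI made a neuron Sprr1a+. Under that setting some calls of the main fits, here or in other comparisons, had too few cells or counts to be tested. With sex as a replicate block, 10 differences were called. In NP2, 2 of 6 members tested were called, where 4.36% of genes were: Lpar3 fell from 120 and 110.0 to 67.9 and 69.7 CPM (-0.76, SE 0.07, adjusted p = 3e-06), and Il13ra1 was at 4.003 and 4.32 against 6.88 and 6.27 CPM (0.64, SE 0.16, adjusted p = 0.012). NP2 pooled clusters 5, 11 and 29, and Lpar3 was a leading gene of clusters 5 and 29. Cluster 29 held 42 of 459 and 24 of 591 NP2 cells of sham and 1 of 146 and 3 of 169 of CCI. Cluster 5 held 220 and 329 against 99 and 108. The part of this makeup in the Lpar3 values was not tested. In NP3, 1 of 7 was called, where 2.7% of genes were: Il13ra1 was at 6.88 and 7.14 against 12.8 and 11.4 CPM (0.74, SE 0.18, adjusted p = 0.017). Hrh1, the member NP3 leads in, was not called there (-0.44, adjusted p = 0.064). The Il13ra1 call in NP2 was lost without Male-Sham (adjusted p = 0.081) or Male-CCI (0.088), and the one in NP3 without Male-Sham (0.11), Female-Sham (0.095) or Male-CCI (0.11), or with doublets kept (0.097).

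PEP1 had 2 of 8 members called, where 5.22% of genes tested were, at levels far below those of NP1. Il31ra was at 1.27 and 0.804 CPM in sham and 2.26 and 4.39 CPM in CCI (1.74, SE 0.34, adjusted p = 0.0086), from 34, 28, 30 and 64 UMIs, and Htr1f was at 1.54 and 0.631 against 2.18 and 2.95 CPM (1.33, SE 0.38, adjusted p = 0.04). The Il31ra call was lost without Female-Sham (adjusted p = 0.057), and the Htr1f call without Female-Sham (0.21) or Female-CCI (0.17). Nppb stood at 0.225 to 0.480 CPM in these cells. Glial marker RNA fell in PEP1 from 1463 and 1440 to 494 and 629 CPM, and its part in these values was not tested. PEP1 pooled clusters 2, 15 and 20, and its makeup differed between the surgeries. Cluster 20 held 98 of 492 and 199 of 893 PEP1 cells of sham and 12 of 189 and 30 of 310 of CCI. The part of this makeup in the Il31ra and Htr1f values was not tested either.

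In the other 6 classes edgeR called no member among the Sprr1a- neurons, and neither did DESeq2. The members tested were 2 in PEP2 (1.85% of genes called), 4 in PEP3/4 (3.54%), 5 in PEP5 (3.35%), 3 in NF1 (1.07%), 2 in NF2 (1.67%) and 2 in cLTMR (1.72%). At an unadjusted p under 0.05 there were 2 members in PEP3/4, 2 in NF1, 1 in NF2 and 0 in PEP2, PEP5 and cLTMR. Among satellite glial cells only S1pr1 had counts enough, and edgeR and DESeq2 called 0 of 1, also at an unadjusted p under 0.05 (2.45% of genes called). Its level was 42.3 and 50.7 CPM in sham and 48.4 and 41.0 CPM in CCI (-0.08, SE 0.25, adjusted p = 0.93), with overlapping ranges.

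Leaving out every cell whose barcode also occurred in another library gave 5 calls in place of 4 for all neurons, the added one being Cysltr2, and left 1 for Sprr1a- neurons, 6 for Sprr1a+ against Sprr1a- neurons of CCI, 4 in place of 5 for Sprr1a- neurons by class and 12 in each of the sets of NP1, NF1 and NF2 comparisons. The call lost was Il13ra1 in NP2 (adjusted p = 0.06).

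The chains and kinases that work with the cytokine receptors were also read, from a list of 16 genes. In Sprr1a+ NP1 neurons of CCI against Sprr1a- ones of sham, 11 of the 14 tested were called, 7 up and 4 down, beside 41.6% of all genes, and the list median was 0.27 against 0.01 for all genes tested. Osmr, the partner chain of Il31ra, was at 436 and 406 CPM in sham and 89.4 and 96.5 CPM in CCI (-2.12, SE 0.10). Jak1 went from 2382 and 2072 to 534 and 511 CPM (-2.03, SE 0.09), and Stat6, the factor used by the IL-4 receptors, from 41.0 and 41.5 to 23.4 and 18.3 CPM (-0.92, SE 0.15).

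Il2rg, the partner of Il4ra in the receptor for IL-4 alone, went from 0.519 and 0.358 to 7.88 and 7.47 CPM (4.07, SE 0.55). Both sham values lay under the floor of 3 counts, 0.778 and 1.07 CPM in these cells. Il2rg thus passed the count filter through the Sprr1a+ group, and the size of its fold change is uncertain. Stat5a (3.65, SE 0.29), Stat5b (2.39, SE 0.15) and the feedback inhibitors Cish (2.99, SE 0.31), Socs1 (2.45, SE 0.22) and Socs3 (1.57, SE 0.13) rose too, and Jak2 by 0.51 (SE 0.21, adjusted p = 0.039). Stat5a, at 1.04 and 4.29 CPM in sham, and Cish, at 1.56 and 5.01 CPM, likewise passed the filter through the Sprr1a+ group. Il2rg, Stat5a and Cish are among the genes counted as up, so the filter partly set that count. Socs2 fell by 0.50. Il6st, Tyk2 and Stat3 were not called, with log2 fold changes of -0.20, -0.35 and 0.03. Jak3 and Il13ra2 had too few counts.

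**Figure D4:**
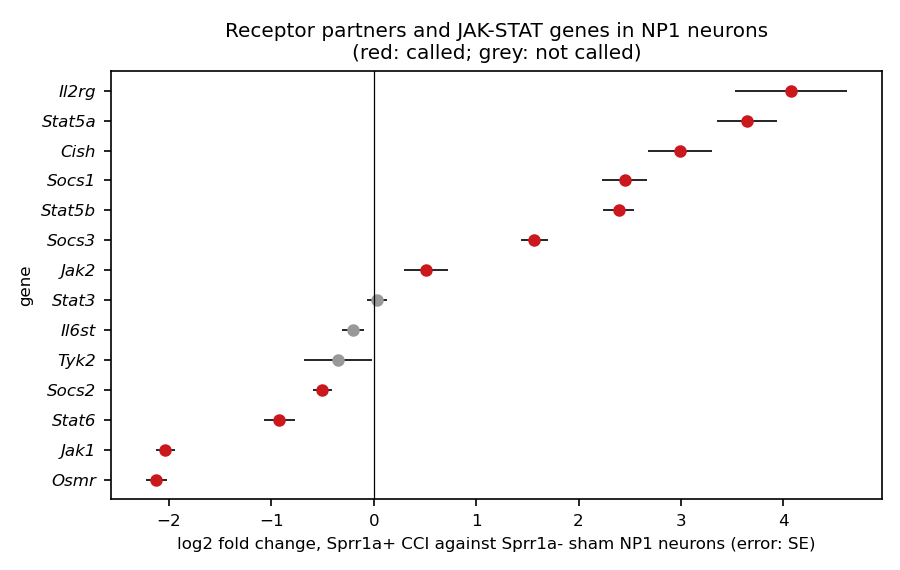
Log2 fold change (x axis, error bars SE) of the 14 tested receptor partners and JAK-STAT genes between Sprr1a+ NP1 neurons of CCI and Sprr1a- NP1 neurons of sham. Il2rg, Stat5a and Cish lie farthest to the right, at 4.07, 3.65 and 2.99, and Osmr and Jak1 farthest to the left, at -2.12 and -2.03. The sham values of Il2rg lie under the floor of 3 counts. Stat5a and Cish were low in sham as well, and all of these passed the count filter through the Sprr1a+ group.

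Over all neurons, 8 of the 15 partners tested were higher after CCI and 0 lower, beside 27.8% of all genes called in either direction, with a list median of 0.58: Stat5a by 2.13, Cish by 1.99, Il2rg by 1.505, Socs3 by 1.18, Socs2 by 1.17, Stat5b by 1.03, Socs1 by 0.85 and Jak2 by 0.58 (SE 0.05 to 0.13). In Sprr1a- neurons 1 of 15 was called, higher (4.48% of all genes), and within CCI 8 were higher and 2 lower in Sprr1a+ neurons (45% of all genes). Socs2 thus had opposite signs over all neurons and in injured NP1, a difference that was not tested.

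Other receptors of the same ligands made a list of 16. Of 6 tested in injured NP1, 4 were lower and 1 higher, beside 41.6% of all genes called, with a list median of -1.89 against 0.01. Htr1a, a second serotonin receptor, went from 95.7 and 80.5 to 1.86 and 3.65 CPM (-4.96, SE 0.19), Lpar1 from 91.3 and 83.4 to 19.5 and 10.3 CPM (-2.48, SE 0.21) and S1pr3 from 28.5 and 29.3 to 4.59 and 3.65 CPM (-2.74, SE 0.22). Hrh2 was lower by -1.29 (SE 0.26), and Htr1d, at 0 and 0.716 CPM in sham, reached 8.74 and 8.90 CPM. Both sham values of Htr1d lay under the floor of 3 counts, so it was tested only through its Sprr1a+ counts. Over all neurons, where 27.8% of genes were called, 2 of 13 were higher, S1pr2 (1.30) and Lpar2 (1.604, under 1 CPM throughout), and 2 lower, Htr1a (-0.98) and Hrh3 (-0.88).

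Of 13 other itch receptors, 4 could be tested in injured NP1, and 2 were higher and 1 lower, beside 41.6% of all genes called. Crlf2, the receptor chain for the epithelial cytokine TSLP, went from 15.3 and 20.4 to 53.3 and 57.8 CPM (1.72, SE 0.15) and Il17ra from 4.41 and 6.44 to 49.1 and 42.9 CPM (3.18, SE 0.21). Mrgprd, an NP2 naming gene, was lower, from 5.97 and 15.4 to 0.287 and 0.159 CPM (-5.29, SE 0.63). Its CCI values lay under the floor of 3 counts, and the part of free RNA from NP2 neurons in its sham values was not tested. In Sprr1a- NP1 neurons Crlf2 was called as well (1.13, SE 0.23, adjusted p = 0.0083). Over all neurons, where 27.8% of genes were called, 3 of 9 were higher, Il17ra (2.56), F2rl1 (1.73) and Crlf2 (0.58), and 4 lower, Mrgpra3 (-1.63), Ednra (2.36 and 2.36 against 1.14 and 1.13 CPM), Mrgprx1 (-0.90) and Il1rap (-0.53). Among 12 genes of itch signalling and itch transmitters, 10 could be tested in injured NP1, where 41.6% of genes were called, and 8 were lower and 0 higher: Trpa1, the irritant channel, from 19.5 and 19.0 to 0.716 and 0.953 CPM (-4.44), Plcb3, the phospholipase of itch receptors, from 160 and 126 to 15.2 and 16.0 CPM (-3.14), Nmb (-1.80), Gnaq (-1.17), Gna14 (-0.999) and Trpv1 (-0.95), together with Nppb and Sst, which had helped to name the class. Over all neurons, beside 27.8% of genes called, 2 of 12 were higher, Nts (2.90) and Grp (3.15, from 0.111 and 0.121 to 1.07 and 0.932 CPM), and 4 lower, Sst (-1.43), Plcb3 (-1.13), Nmb (-0.86) and Trpv1 (-0.55).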

How the data were processed

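Cells of L4-5 DRG from 4 pools of mice were captured with 10x 3′ chemistry. The deposited matrices hold raw UMI counts per gene and cell, made by the authors with Cell Ranger (2.1.1 in the submitters' processing notes, which also name Seurat and mm10, and 3.0.2 in the file headers). Cells with at least 1500 genes and at most 10% mitochondrial UMIs were kept. Doublets were removed by Scrublet score, in the number the study gives, because Scrublet's own threshold marked 0 cells in 2 libraries.

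Cells were clustered with Seurat 5.3.0 (3000 variable genes, 20 components, resolution 0.8) and named from marker lists. The naming rule was set after the clusters were seen: a marker passed at 10% of cells and a 2-fold excess, and at least 3 were needed. A subtype name needed at least as many markers passed as failed and a lead over the next subtype, and took precedence over CCI-ind. Sprr1a+ meant a value of at least 1 for the natural log of 1 plus counts per 10000. Counts were summed per class, state and library (10 cells or more) and tested with edgeR 4.0.16 (robust quasi-likelihood, filterByExpr, TMM), with Benjamini-Hochberg adjustment over all genes tested. Genes were called at an adjusted p below 0.05 and an absolute log2 fold change above 0.5. The spread behind each p-value is that between libraries of pooled mice. Alternatives included DESeq2 1.42.0, library totals, no filter, sex as a block, leaving out each library, other resolutions and any Sprr1a UMI.

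The members and gene lists were chosen with earlier results of these data known. All members are named, and from the 4 lists of related genes those called in all neurons or in Sprr1a+ NP1 neurons, with the 3 genes nearest in pattern to each member. A nearest gene of S1pr1 and the names of some glial markers are not reported here. In data simulated for all neurons, 77% of 2-fold and 92% of 4-fold changes were recovered among 17233 genes. For Sprr1a+ against sham NP1 neurons, 72% and 94% were recovered among 11378 genes.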

Additional observations from a re-analysis of the deposited data

Results flagged for a closer look

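The effect of injury on a receptor, taken as Sprr1a+ CCI neurons compared with Sprr1a- sham neurons, differed between subtypes for 5 members. This came from an interaction test over 13058 genes (edgeR, Benjamini-Hochberg), which was added after seeing the data. The fit had no term for library. Sums of NP1, NF1 and NF2 from the same library thus counted as separate replicates, and the p-values take no account of that sharing. Of the 5 members, S1pr1 had too few counts to be tested within NF1 or NF2. Between NF1 and NP1 the log2 fold changes differed by 6.22 for Il31ra (SE 0.61, adjusted p = 9.6e-06) and by 4.29 for Htr1f (SE 0.20, adjusted p = 3.1e-12), both higher in injured NF1 and lower in injured NP1. Il4ra rose more in NF1 than in NP1, by 1.74 (SE 0.24, adjusted p = 1.1e-05), and more than in NF2, by 1.76 (SE 0.23, adjusted p = 1.5e-05), whereas its difference between NF2 and NP1 was -0.03 (SE 0.22, adjusted p = 0.98). Il13ra1 rose more in NF1 than in NP1, by 2.98 (SE 0.31, adjusted p = 2.3e-07), and more in NF2 than in NP1, by 2.09 (SE 0.34, adjusted p = 8.9e-05).

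The other calls rest on members with too few counts in NF1 or NF2 to be tested within that class. Between NF2 and NP1 they were Il31ra (5.08, SE 0.84, adjusted p = 0.00081), Htr1f (7.79, SE 1.14, adjusted p = 3.3e-05), whose fold change in NF2 starts from 0 UMIs and so depends on the prior count, and S1pr1 (3.28, SE 0.82, adjusted p = 0.005). S1pr1 also differed between NF1 and NP1 (4.64, SE 1.43, adjusted p = 0.017), with 2 and 1 UMIs in sham NF1 and 2 and 0 in Sprr1a+ NF1 neurons of CCI, and in NF2 it had 4 and 3 UMIs in sham and 4 and 2 in CCI. The 3 classes come from the same 4 libraries.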

How the results depend on the processing

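Of 40 called results, 456 of 480 alternatives kept the direction and the call, 24 lost the call and 0 turned the direction. Alternatives in which a result could not be tested are not among the 480. At resolutions 0.4 and 1.2, NP1 (451), NP2 (1365), NP3 (565) and PEP1 (1884) kept their numbers of cells. These 2 alternatives could therefore hardly differ from the main fit, and the agreement overstates how much was varied. Of 23 results not called, 19 of 302 alternatives called them and 24 turned the sign without a call. The count for Sprr1a- neurons (1) became 3 when any UMI made a neuron Sprr1a+, and 0 to 2 with a library left out. The count over Sprr1a- neurons by class (5) became 2 with DESeq2, 8 with no filter on low counts, 8 with doublets kept, 0 with any Sprr1a UMI, and 2 to 8 with a library left out. Sprr1a+ against Sprr1a- neurons of CCI by class (12) became 7 with any Sprr1a UMI. Under that setting 8 called results were tested again and lost the call. Others were missing because the class had too few cells or the member too few counts to be tested. The cause of the losses was not tested.

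Signs turned, always without a call, for Il31ra in all neurons (-0.019 with doublets kept, -0.18 to 0.48 with a library left out) and in Sprr1a- NP1 neurons (-0.015 with no filter, -0.0017 without shared barcodes, -0.14 to 0.13). Htr1f turned in all neurons (-0.021 without shared barcodes, -0.24 to 0.42), in Sprr1a- neurons (-0.28 to 0.41) and in Sprr1a+ against Sprr1a- neurons of CCI (-0.035 with library totals, -0.20 with any UMI, -0.068 without shared barcodes). Cysltr2 turned in Sprr1a- neurons (0.020 with library totals, 0.26 with any UMI, -0.38 to 0.30). With any UMI, Cysltr2 (0.11), Htr1f (0.13) and Il4ra (-0.18) turned in Sprr1a- NP1 neurons. Hrh1 turned in Sprr1a- NP1 neurons (-0.68 to 0.046) and in Sprr1a+ ones against sham (-0.0063 with doublets kept), and S1pr1 in satellite glial cells (-0.26 to 0.037).

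Libraries of the same replicate number share their sex across surgeries but no animals, and there are 2 such pairs (r = 0.35 between the male deviations over 9505 genes). With sex as a replicate block, the count was 5 in place of 4 for all neurons and 10 in place of 5 for Sprr1a- neurons by class, and 12 in both fits for Sprr1a+ neurons against sham. Leaving out a library within CCI leaves no residual degrees of freedom and was not run. With 1 library left in an arm, it is assumed to vary like the other surgery's.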

Other observations

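The few Sprr1a+ NP1 neurons of sham ganglia, 5 in Male-Sham and 15 in Female-Sham, entered no comparison of NP1 neurons. All lay in cluster 25. Their Il31ra levels were 81.7 and 138 CPM, those of Cysltr2 35.4 and 59.0 CPM, those of Htr1f 81.7 and 105 CPM and those of Il4ra 35.4 and 26.8 CPM. The Il31ra values rest on 30 and 103 UMIs.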
